A study of Homo sapiens with 32 samples.

Results

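The G1 regulators described here are 10 genes that govern the passage of a cell through the G1 phase of its cycle: the cyclin-dependent kinase (CDK) inhibitors CDKN1A, CDKN1B and CDKN1C of the CIP/KIP family and CDKN2C and CDKN2D of the INK4 family, the transcription factor gene MYC, the D-type cyclin genes CCND1 and CCND3, the kinase gene CDK6 and the phosphatase gene CDC25A. They were taken by gene symbol from a table of 17788 genes counted in 32 RNA sequencing (RNA-seq) libraries. All 10 were present and all 10 passed the filter on low counts, as 14865 genes did.

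D-type cyclins bind CDK4 or CDK6, and these kinases phosphorylate the retinoblastoma protein, which frees E2F transcription factors and opens the way into S phase. INK4 proteins block CDK4 and CDK6 directly, CIP/KIP proteins act on the cyclin E and cyclin A complexes of CDK2, CDC25A removes inhibitory phosphates from CDKs, and MYC drives growth and proliferation genes. In epithelial cells TGFβ is a classical cause of arrest in G1, for which a fall of MYC and CDC25A and a gain of CDK inhibitors are the textbook events.

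The cells were clones of MCF10A, a line of human breast epithelium that forms no tumours, and the comparison of clones asked how the response to TGFβ1 depends on JUNB, a subunit of the transcription factor AP-1. Clones 27 and 2 carry wild-type JUNB (WT). Clones 1 and 65, labelled as JUNB knock-outs and called mut in the study, are single-cell clones made with CRISPR/Cas9; they carry an extended deletion in JUNB, lack the wild-type protein and retain a low level of a smaller polypeptide that TGFβ1 can induce. Each clone received solvent (bovine serum albumin in buffered saline) or TGFβ1 at 5 ng/ml for 6, 24 or 72 h. With 2 replications of each clone there were 8 groups of 4 libraries. The labels give the solvent libraries a time of 0 h, while the study describes solvent treatment over 72 h. Libraries are named by clone and replication, so that 27-2 is the second replication of clone 27, and the 4 libraries of such a pair form a series. A genotype difference therefore rests on 2 clones per genotype, and p-values measure the spread between these libraries. In what follows ± gives the standard error (SE) of a log2 value and the SD of 4 libraries for a level or share.

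Library totals ranged over 39702412 to 54651906 counts, and abundances are given as CPM, which are counts scaled to a common library total of 1000000. The mut libraries kept JUNB counts (log2 difference of mut against WT 0.10 in solvent to 0.38 at 72 h, limma-voom adjusted p-values of 0.370 to 0.885), so that counts do not check the genotype labels. The mut clones differed in JUNB, with means in solvent of 73.3 CPM in clone 1 and 149.9 CPM in clone 65. The WT clones 27 and 2 lay between, at 91.8 and 103 CPM. At 6 h the means were 166 and 465 CPM in mut clones 1 and 65, and 202 and 263 CPM in WT clones 27 and 2. The libraries of WT series 27-2 correlated least with the others of their group in 4 of 4 groups and those of mut series 1-2 in 3 of 4, with mean correlations of log2 values across genes still between 0.988 and 0.995, and member calls that were lost or gained without either series are given with their values. All 8 basal epithelial markers (EPCAM, CDH1, KRT5, KRT14, KRT17, TP63, ITGB4 and LAMB3) were in the table (summed abundance 10642 to 20779 CPM). Single markers moved in both directions with TGFβ1. In WT cells at 24 h 4 were higher and 2 lower (limma-voom adjusted p under 0.05), as were 14.1% and 38.0% of all genes. At 72 h 3 were higher and 3 lower (all genes 13.9% and 38.4%), with log2 changes of -1.66 to 1.74. In mut cells at 72 h 3 were higher and 4 lower (7.81% and 16.3%). The leukocyte markers PTPRC and CD3E together stayed at or below 0.0498 CPM and the endothelial marker VWF at or below 0.140 CPM, whereas the fibroblast and pericyte markers DCN and PDGFRB together had 4.76 to 13.4 CPM in WT solvent, 5.05 to 15.4 CPM in WT 72 h, 11.9 to 19.6 CPM in mut solvent and 25.99 to 34.1 CPM in mut 72 h libraries. Their part in the results was not tested. The endothelial marker PECAM1 was not found by symbol in the table and could not be analysed here. Under library-size scaling the genes as a whole had a median log2 change in WT cells of -0.18 at 24 h and -0.19 at 72 h, against 0.00 and -0.03 with trimmed mean of M-values (TMM) factors, so members are also placed relative to that median.

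The promoters of members that moved in opposite directions are shown first. Of the 10 members, 7 had at least 1 window of 300 bases in the RefSeq promoter set (GRCh38.p14, 250 bases before to 50 bases after the start), 12 windows in all; CDKN1C, MYC and CCND1 had none. Shown here, written 5′ to 3′ on the gene's strand, are the windows of CDC25A (chr3:48188368-48188667, minus strand), of CDKN2C from its most downstream start (chr1:50969995-50970294, plus strand) and of CDKN1A (chr6:36678464-36678763, plus strand). Capitals mark motif matches.
CDC25A: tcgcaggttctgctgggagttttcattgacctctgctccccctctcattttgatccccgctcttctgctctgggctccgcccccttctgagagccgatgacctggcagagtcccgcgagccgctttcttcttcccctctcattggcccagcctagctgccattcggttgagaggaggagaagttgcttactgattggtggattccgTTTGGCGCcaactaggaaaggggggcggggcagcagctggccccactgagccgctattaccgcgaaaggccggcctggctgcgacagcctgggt
CDKN2C: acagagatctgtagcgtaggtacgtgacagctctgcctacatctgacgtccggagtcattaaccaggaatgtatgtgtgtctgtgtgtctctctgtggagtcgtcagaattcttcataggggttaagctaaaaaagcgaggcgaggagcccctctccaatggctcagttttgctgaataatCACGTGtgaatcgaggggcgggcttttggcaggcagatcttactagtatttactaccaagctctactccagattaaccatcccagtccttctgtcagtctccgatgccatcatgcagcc
CDKN1A: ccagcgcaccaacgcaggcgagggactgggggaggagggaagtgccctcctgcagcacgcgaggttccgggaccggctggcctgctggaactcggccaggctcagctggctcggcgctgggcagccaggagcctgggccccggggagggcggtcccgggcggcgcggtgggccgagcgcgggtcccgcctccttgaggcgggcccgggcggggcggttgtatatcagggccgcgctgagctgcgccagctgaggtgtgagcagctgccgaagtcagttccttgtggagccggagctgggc
In CDC25A the capitals are an E2F motif (TTTNGCGC), which starts 44 bases before the gene start and is present in 1.79% of all 35116 windows; in CDKN2C they are an E-box (CACGTG, the MYC-MAX motif), which starts 69 bases before the start and is present in 7.26% of all windows. A further CDKN2C window and a CDK6 window also held an E-box. The AP-1 motif (TGANTCA, in 7.71% of all windows), the CRE (TGACGTCA, in 1.85%) and the SMAD palindrome (GTCTAGAC, in 0.202%) were present in 0 of the 12 member windows. Both strands were searched, and none of these motifs contains another.

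Levels of different genes were compared per kilobase of annotated exons. In WT solvent libraries CDKN1A was highest at 149 ± 4.25 CPM per kb (n = 4), followed by MYC at 102 ± 11.2, CCND1 at 67.3 ± 3.13, CCND3 at 30.5 ± 1.03, CDC25A at 11.3 ± 0.468 and CDK6 at 8.84 ± 0.582 CPM per kb. The lower end of the order held CDKN2C, CDKN1B, CDKN1C and CDKN2D at 4.95 ± 0.667, 4.25 ± 0.419, 3.37 ± 1.78 and 2.62 ± 0.337 CPM per kb, and the ranges of neighbours among these 4 overlapped, while those of all higher neighbours did not. In mut solvent libraries MYC stood highest at 101 ± 9.76 CPM per kb, with a range that overlapped that of CDKN1A at 95.5 ± 7.62. CDKN1C took the sixth place there at 8.23 ± 2.32 CPM per kb, with a range that overlapped those of CDC25A and CDK6. The length is the union of all annotated exons, so a gene with long rarely used exons, such as CDKN1B with 9255 bases, is placed lower than by its main transcript.

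**Figure D1:**
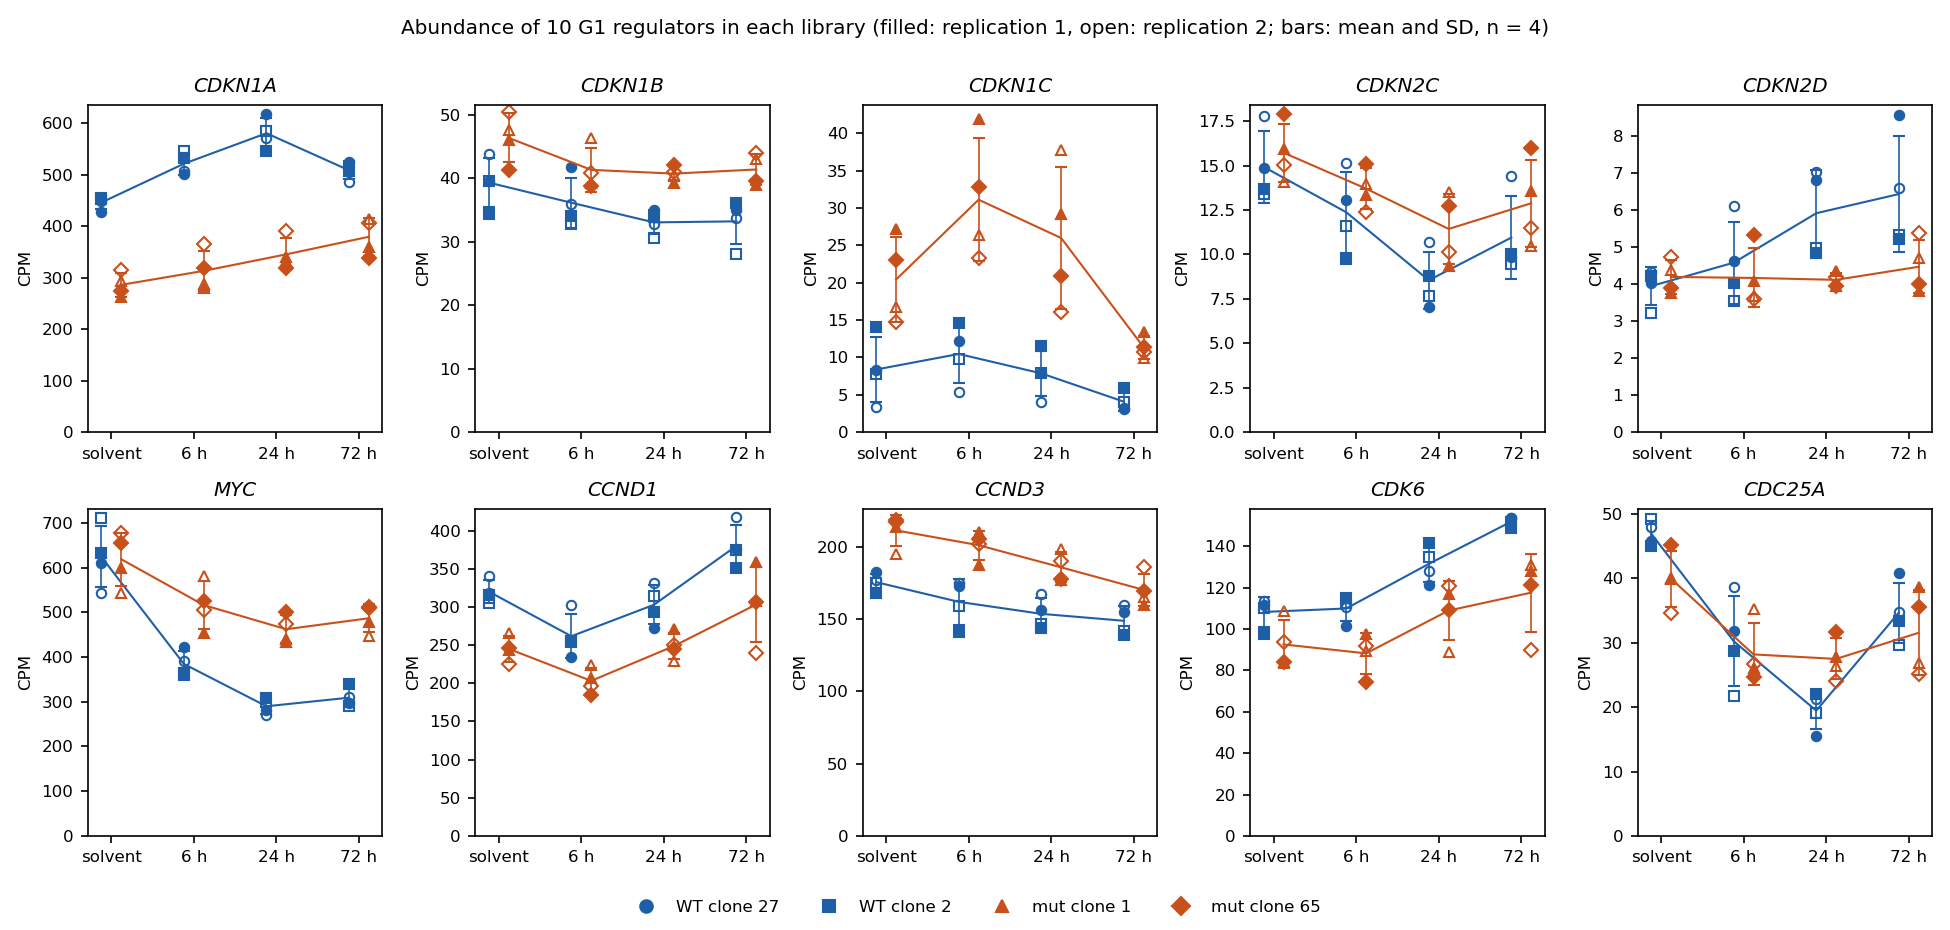
CPM (y axis, from 0) of each of the 10 G1 regulators in each library, by treatment state (x axis), with WT clones in blue and mut clones in orange, filled symbols for replication 1 and open symbols for replication 2; lines join group means and bars are the SD of 4 libraries. MYC starts at similar levels in both genotypes and falls to 289.9 ± 16.7 CPM in WT but 462 ± 31.6 CPM in mut libraries at 24 h, while CDKN1A is lower and CDKN1C higher in mut libraries at every state.

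With TGFβ1 at 24 h, 8 of the 10 members changed in WT clones and 5 in mut clones, and for 2 of them, MYC and CDC25A, the difference between these changes was itself called. With TMM factors the difference of MYC was still called and that of CDC25A was not. Fitting the series as a block also called the difference of CDKN2D. A gene is called when its Benjamini-Hochberg adjusted p-value in the two-sided limma-voom test is under 0.05. In WT cells 1 member rose and 3 fell at 6 h, against 5.13% and 11.9% of all genes. At 24 h 3 rose and 5 fell in WT cells, where 14.1% of all genes rose and 38.0% fell, and at 72 h 4 rose and 5 fell, with 13.9% and 38.4% of all genes. With TMM factors the higher WT calls numbered 3 at 24 h and 4 at 72 h and the lower ones 3 and 1. Over all genes the same factors moved the higher calls from 2098 to 3499 and the lower calls from 5654 to 3450 at 24 h, and from 2061 to 3189 and from 5705 to 3459 at 72 h, of 14865 genes. In mut cells 0 members rose and 1 fell after 6 h (all genes 2.06% and 4.94%), 1 rose and 4 fell after 24 h (6.75% and 17.1%), and 3 rose and 2 fell after 72 h (7.81% and 16.3%). TMM factors gave 2 higher and 2 lower in mut cells at 24 h, beside 1376 and 1195 of all genes. Comparing libraries within a series, by fitting it as a block, gave 4 member calls at 6 h and 8 at 72 h in mut cells, where the calls over all genes rose from 1041 to 2453 and from 3584 to 5036.

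Between treatment times, WT cells changed further from 6 to 24 h, where 0 members rose and 3 fell (all genes 7.16% and 21.0%; with TMM factors 4 rose and 2 fell, and with the series as a block 4 rose and 3 fell), and from 24 to 72 h, where 2 rose and 0 fell (4.68% and 3.15%; with the series block 3 rose and 2 fell). In mut cells 0 members were called from 6 to 24 h, where 3.12% of all genes were; 2 members had an unadjusted p under 0.05, and TMM, edgeR quasi-likelihood and DESeq2 called 0, 0 and 2. From 24 to 72 h limma-voom likewise called 0 members in mut cells (all genes 1.31%), with 2 at an unadjusted p under 0.05 and 0, 0 and 1 by the same tools. The series block called 1 and 2 members in these mut comparisons, and 1722 and 1404 of all genes.

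The members that rose in WT cells from 6 to 24 h with the series block were CDKN1A at 0.15 (adjusted p 0.0278), CDKN2D at 0.37 (adjusted p 0.0325), CCND1 at 0.21 (adjusted p 0.0179) and CDK6 at 0.26 (adjusted p 0.0488). Over all genes that block called 1629 higher and 3973 lower, and TMM factors 1922 and 1812. The same 4 genes rose with TMM factors, at 0.26 (adjusted p 0.0192), 0.50 (adjusted p 0.0359), 0.32 (adjusted p 0.0147) and 0.36 (adjusted p 0.0103). Without a block, CDKN2D was called in 2 fits that left out 1 library, since without WT 6 h 27-2 or WT 24 h 2-1 the value was 0.49 to 0.55 with adjusted p-values of 0.0246 to 0.0467. For CCND1, without WT 6 h 27-2 or WT 24 h 27-1 the value was 0.26 to 0.28 with adjusted p-values of 0.0246 to 0.0481, and CDK6 was 0.26 (adjusted p 0.0313) without series 1-2. In mut cells over the same interval CDK6 was 0.41 (adjusted p 0.0287) without series 1-2, and without mut 24 h 1-2 the value was 0.40 with an adjusted p-value of 0.0222.

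The genotypes differed in 4 members in solvent, 2 higher and 2 lower in mut, against 6.38% and 6.32% of all genes. With TGFβ1 the members higher in mut cells numbered 3 at 6 h, 5 at 24 h and 4 at 72 h, against 11.3%, 24.7% and 26.0% of all genes, and those lower numbered 3, 4 and 4, against 10.0%, 12.2% and 13.2%. The excess of higher calls over all genes depended on the scaling. TMM factors gave 5 members higher and 4 lower in mut cells at 24 h, beside 2386 and 2553 of all genes. At 72 h they gave 3 and 4, beside 2776 and 2653. The interaction, which is the TGFβ1 change in mut minus that in WT cells, was called for 0 members at 6 h (all genes 0.0740%; 1 member at an unadjusted p under 0.05, and 0 by TMM, quasi-likelihood and DESeq2). It was called for MYC and CDC25A at 24 h, both higher and 0 lower (7.72% and 1.93%), and for MYC at 72 h, with 0 lower (9.40% and 2.92%). TMM factors gave 1 member higher and 0 lower at each of these times. Over all genes they gave 443 higher and 417 lower at 24 h, and 674 and 617 at 72 h. The series block gave 3 interaction calls at 24 h and 3 at 72 h, beside 2782 and 3488 over all genes. Comparisons with the same solvent or WT libraries share those libraries.

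**Figure D2:**
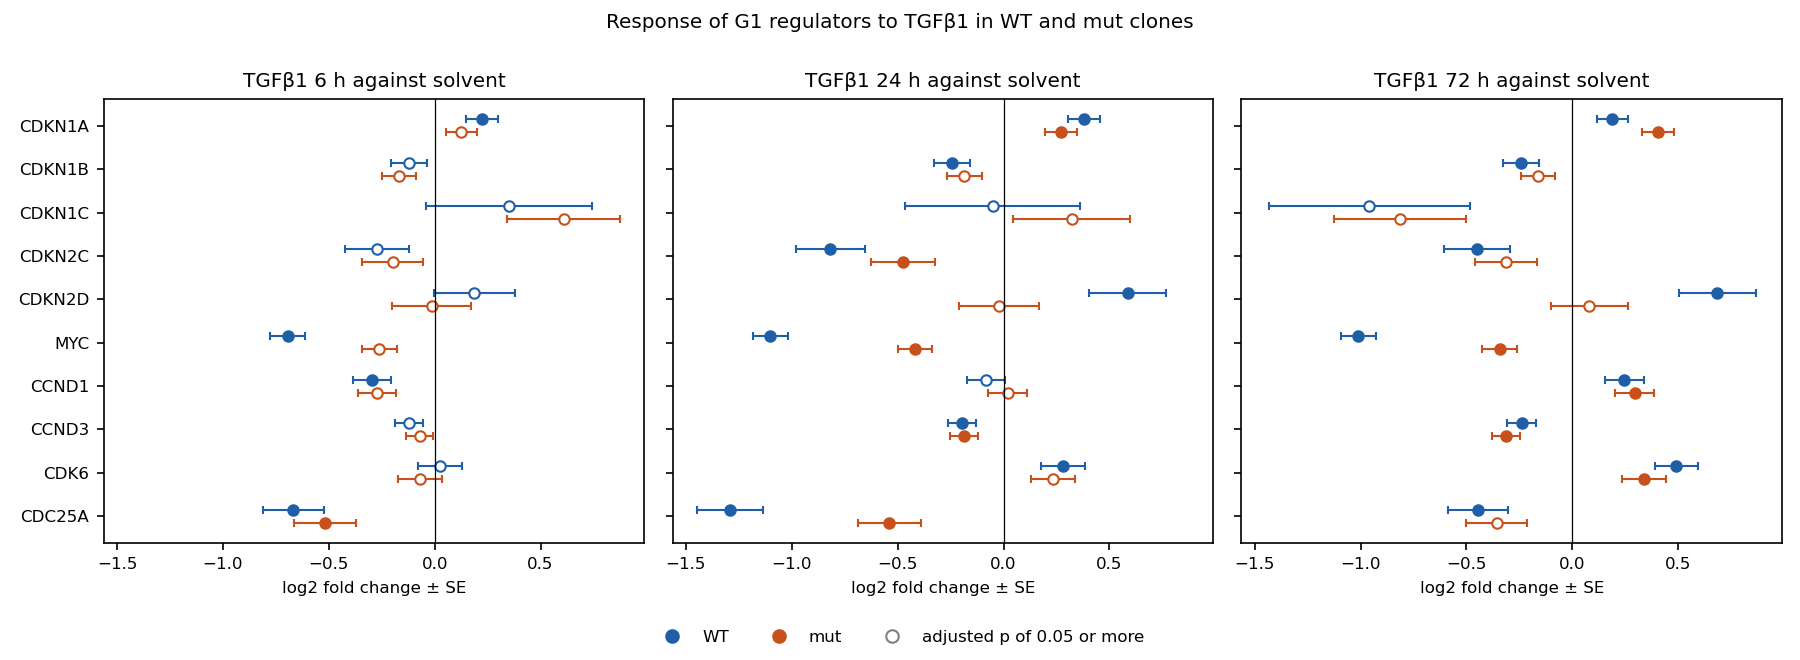
Log2 fold change of TGFβ1 against solvent (x axis, ± SE from limma-voom) for each G1 regulator in WT (blue) and mut (orange) cells at 6, 24 and 72 h; open symbols have an adjusted p of 0.05 or more. MYC and CDC25A reach -1.10 and -1.29 in WT cells at 24 h and -0.42 and -0.54 in mut cells. CDK6 lies on the right in both genotypes at 72 h, at 0.49 and 0.34.

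CDKN1A, which encodes the inhibitor p21 and is a direct target of TGFβ signalling, was the most abundant inhibitor and rose in both genotypes from different starting levels. CDKN1A (ENSG00000124762, chromosome 6, 36676460 to 36687337, plus strand) had values of 427, 448, 455 and 454 CPM in the WT solvent libraries 27-1, 27-2, 2-1 and 2-2, the order kept for WT values throughout. After TGFβ1 the WT libraries had 501, 507, 532 and 546 CPM after 6 h, 619, 572, 547 and 585 CPM at 24 h and 524, 486, 506 and 517 CPM at 72 h. Every treated WT library lay above every WT solvent library. In the mut solvent libraries 1-1, 1-2, 65-1 and 65-2, the order for mut values, it had 263, 294, 273 and 314 CPM. Treated mut libraries had 279.8, 289, 319 and 366 CPM after 6 h, 340.1, 333, 318 and 390.3 CPM at 24 h and 360.1, 414, 337 and 406 CPM at 72 h. At 6 h the mut range overlapped that of solvent, and at 24 and 72 h it did not. The whole mut range stayed below the whole WT range at each state.

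The log2 fold change of CDKN1A in WT cells was 0.22 ± 0.08 after 6 h, 0.38 ± 0.08 at 24 h and 0.19 ± 0.08 at 72 h (adjusted p from limma-voom 0.0376, 0.000108 and 0.0356). Relative to the median of all genes the WT values at 24 and 72 h were 0.56 and 0.38. The WT calls at 6 and 72 h were lost without any of several single libraries. At 6 h, without WT solvent 27-1, 2-1, 27-2 or 2-2 or WT 6 h 2-1 or 2-2 the value was 0.20 to 0.23 with adjusted p-values of 0.0576 to 0.112, and at 72 h, without WT solvent 27-1 or 27-2 or WT 72 h 27-1, 2-1 or 2-2 the value was 0.17 to 0.19 with adjusted p-values of 0.0525 to 0.0905. Without series 27-2 the values were 0.24 (adjusted p 0.0770) and 0.21 (adjusted p 0.0533), and with the replications of a clone summed 0.23 (adjusted p 0.101) and 0.19 (adjusted p 0.0722). In mut cells the fold change was 0.13 ± 0.07 at 6 h, not called (adjusted p 0.327), 0.27 ± 0.07 at 24 h and 0.41 ± 0.07 at 72 h (adjusted p 0.00901 and 0.000189); at 24 h, without mut 24 h 65-2 the value was 0.21 with an adjusted p-value of 0.0535. From 24 to 72 h the WT level moved by -0.19 (adjusted p 0.124), which the series block called at -0.19 (adjusted p 0.0164), and the interaction at 72 h of 0.22 (adjusted p 0.190) was called by that block too at 0.22 (adjusted p 0.0450).

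Against WT, CDKN1A was lower in mut clones, with log2 differences of -0.64 ± 0.07 in solvent, -0.74 ± 0.08 after 6 h, -0.75 ± 0.08 at 24 h and -0.43 ± 0.08 at 72 h (adjusted p-values of 6.44e-07, 2.57e-08, 1.29e-08 and 5.03e-05). All 4 calls held in each fit that left out 1 library. In bulk RNA, fewer cells with a transcript and less transcript per cell cannot be told apart, here and in every result that follows.

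CDKN1B, which encodes p27, an inhibitor controlled mainly through protein stability, had small changes that depended on the scaling. CDKN1B (ENSG00000111276, chromosome 12, 12685498 to 12722369, plus strand) ranged over 34.4 to 43.8 CPM in WT solvent libraries, 30.6 to 35.02 CPM at 24 h and 28.1 to 36.2 CPM at 72 h. In mut libraries it ranged over 41.3 to 50.5 CPM in solvent, 39.3 to 42.2 CPM at 24 h and 39.01 to 43.99 CPM at 72 h. The WT ranges with TGFβ1 overlapped those of solvent, and the mut ranges lay above the WT ranges at 24 and 72 h. The WT changes of -0.24 ± 0.09 at 24 h and -0.24 ± 0.09 at 72 h were called (adjusted p 0.0191 and 0.0195), but were -0.07 and -0.05 relative to the median of all genes and with TMM factors -0.06 (adjusted p 0.563) and -0.08 (adjusted p 0.473). At 24 h, without WT solvent 27-2 or WT 24 h 2-2 the value was -0.21 to -0.19 with adjusted p-values of 0.0655 to 0.0803, and at 72 h, without WT solvent 27-2 or WT 72 h 2-2 the value was -0.19 to -0.17 with adjusted p-values of 0.0808 to 0.116; without the whole series 27-2 they were -0.19 (adjusted p 0.135) and -0.20 (adjusted p 0.108). Neither treated time thus held its call in WT cells against these alternatives. The mut change at 24 h was -0.18 ± 0.08 (adjusted p 0.102; series block -0.19, adjusted p 0.0391). CDKN1B was higher in mut than in WT clones by 0.30 ± 0.09 at 24 h and 0.32 ± 0.08 at 72 h (adjusted p 0.00691 and 0.00324); in solvent the difference was 0.24 ± 0.08 (adjusted p 0.0510; with TMM factors 0.25, adjusted p 0.0376). The solvent difference was 0.29 (adjusted p 0.0376) without series 27-2, and without WT solvent 27-2 or mut solvent 65-1 the value was 0.29 to 0.30 with adjusted p-values of 0.0215 to 0.0306. At 6 h it was 0.19 ± 0.08 (adjusted p 0.0974), and without WT 6 h 27-1 the value was 0.26 with an adjusted p-value of 0.0275. For the mut change at 24 h, without mut solvent 65-1 the value was -0.24 with an adjusted p-value of 0.0436.

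CDKN1C, which encodes p57 and is an imprinted gene expressed mainly from the maternal allele, showed the widest difference between genotypes of the 10 members and a wide spread within groups. CDKN1C (ENSG00000129757, chromosome 11, 2883213 to 2885775, minus strand) had 8.35, 3.34, 14.1 and 7.71 CPM in WT solvent libraries and 27.2, 16.7, 23.1 and 14.7 CPM in mut solvent libraries. At 6 h it had 12.2, 5.31, 14.5 and 9.78 CPM in WT and 41.9, 26.4, 32.8 and 23.3 CPM in mut libraries. At 24 h the values were 7.83, 4.07, 11.5 and 7.94 CPM in WT and 29.1, 37.7, 20.9 and 16.1 CPM in mut libraries, and at 72 h 3.23, 3.07, 5.897 and 4.02 CPM and 13.4, 9.88, 11.4 and 10.7 CPM. Each mut library exceeded each WT library of the same state. The lowest WT solvent library was 27-2, and the highest mut library at 24 h was 1-2. The value in replication 1 exceeded that in replication 2 of the same clone in 15 of 16 pairs, with a median ratio of 1.48; the exception was mut clone 1 at 24 h.

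The log2 difference of CDKN1C between mut and WT was 1.39 ± 0.36 in solvent, 1.65 ± 0.31 after 6 h, 1.76 ± 0.34 at 24 h and 1.53 ± 0.44 at 72 h (adjusted p from limma-voom 0.00858, 0.000311, 0.000215 and 0.00691). In solvent, without WT solvent 27-2 the value was 1.03 with an adjusted p-value of 0.0538, while without the whole series 27-2 it was 1.03 (adjusted p 0.0251). The changes of CDKN1C over time were not called without a block when all libraries were used in limma-voom. With the series as a block, those at 72 h against solvent and against 24 h were called in both genotypes, and that at 6 h in mut cells. The block did not call the WT changes at 6 h (0.33, adjusted p 0.233) and 24 h (-0.08, adjusted p 0.769). The change at 72 h was -0.96 ± 0.48 in WT and -0.81 ± 0.31 in mut cells (adjusted p 0.0921 and 0.0563), and -1.04 (adjusted p 0.000633) and -0.85 (adjusted p 0.000141) with the series as a block. In every series of both genotypes the 72 h library lay below the solvent library, with log2 changes of -1.37 to -0.12 in WT and -1.02 to -0.46 in mut series. At 6 h the mut change was 0.61 ± 0.27 (adjusted p 0.161; series block 0.61, adjusted p 0.00372), and from 24 to 72 h the block gave -0.96 (adjusted p 0.00605) in WT and -1.17 (adjusted p 3.13e-05) in mut cells, against -0.91 and -1.14 without it (adjusted p 0.266 and 0.0573). Without series 27-2 the changes at 72 h were -1.20 (adjusted p 0.0218) in WT and -0.81 (adjusted p 0.0202) in mut cells, and that of mut cells from 24 to 72 h -1.14 (adjusted p 0.0140). For WT cells at 72 h, without WT solvent 27-2 the value was -1.32 with an adjusted p-value of 0.0152. For mut cells at 72 h against solvent, without mut solvent 65-2 the value was -0.96 with an adjusted p-value of 0.0370, and against 24 h, without mut 24 h 65-2 the value was -1.34 with an adjusted p-value of 0.0406. The WT change at 72 h was called without a block by edgeR quasi-likelihood at -0.88 (adjusted p 0.0399) and by DESeq2 at -0.86 (adjusted p 0.0390).

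CDKN1A took 95.1% ± 0.804 of the summed CIP/KIP abundance per kb in WT solvent libraries and 87.7% ± 2.496 in mut solvent libraries (n = 4). These shares use the union of annotated exons, so CDKN1B, with 9255 bases, counts for less in them than by its main transcript. At 72 h the shares were 97.01% ± 0.416 in WT and 93.3% ± 0.760 in mut libraries. The mut range lay below the WT range at each of the 4 states.

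Of the INK4 inhibitors, CDKN2C (p18) fell and CDKN2D (p19 of the INK4 family) rose in WT cells with TGFβ1. CDKN2C (ENSG00000123080, chromosome 1, 50960745 to 50974634, plus strand) had 14.9, 17.8, 13.7 and 13.4 CPM in WT solvent libraries, 13.1, 15.1, 9.71 and 11.6 CPM after 6 h, 7.04, 10.7, 8.77 and 7.67 CPM at 24 h and 9.84, 14.4, 10.02 and 9.48 CPM at 72 h. In mut libraries it had 15.9, 14.1, 17.9 and 15.02 CPM in solvent, 13.3, 13.96, 15.1 and 12.4 CPM after 6 h, 9.35, 13.5, 12.7 and 10.2 CPM at 24 h and 13.6, 10.5, 15.998 and 11.5 CPM at 72 h. Each library at 24 h lay below each solvent library of its genotype, and at 72 h the ranges overlapped again in both. WT library 27-2 was the highest of its group at all 4 states. The WT change was -0.27 ± 0.15 after 6 h, -0.82 ± 0.16 at 24 h and -0.45 ± 0.16 at 72 h (adjusted p 0.241, 0.000117 and 0.0169), or -0.64 and -0.26 at the later times relative to the median of all genes. The call at 72 h was absent with TMM factors at -0.28 (adjusted p 0.146), and without WT solvent 27-2 or WT 72 h 27-1 or 2-2 the value was -0.40 to -0.37 with adjusted p-values of 0.0510 to 0.0644. From 6 to 24 h the WT value was -0.55 ± 0.17 (adjusted p 0.0141; TMM factors -0.44, adjusted p 0.0542), and without WT 6 h 27-2 or WT 24 h 27-1 the value was -0.45 to -0.44 with adjusted p-values of 0.0614 to 0.0693.

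In mut cells CDKN2C changed by -0.48 ± 0.15 at 24 h (adjusted p 0.0229; TMM factors -0.39, adjusted p 0.0820), and without mut solvent 65-1 or mut 24 h 1-1 or 65-2 the value was -0.43 to -0.38 with adjusted p-values of 0.0693 to 0.109. At 72 h it was -0.31 ± 0.15 (adjusted p 0.118). The series block called 3 further CDKN2C comparisons, namely WT at 6 h at -0.28 (adjusted p 0.0489), mut at 72 h at -0.30 (adjusted p 0.0184) and the partial return of WT cells from 24 to 72 h at 0.37 (adjusted p 0.0256). With all libraries the genotypes were not called different at any state. The difference was 0.42 ± 0.17 at 24 h and 0.22 ± 0.16 at 72 h (adjusted p 0.0507 and 0.283), and both were called without series 27-2, at 0.54 (adjusted p 0.00800) and 0.37 (adjusted p 0.0438). At 24 h, without WT 24 h 27-2 or mut 24 h 1-1 or 65-2 the value was 0.47 to 0.54 with adjusted p-values of 0.0243 to 0.0474.

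CDKN2D (ENSG00000129355, chromosome 19, 10566460 to 10569059, minus strand) was the member with the lowest mean abundance in solvent in both genotypes, where each library was above the floor of 3 counts. It had 4.03, 4.31, 4.21 and 3.199 CPM in WT solvent libraries, 4.63, 6.09, 4.03 and 3.53 CPM after 6 h, 6.81, 7.03, 4.83 and 4.96 CPM at 24 h and 8.57, 6.57, 5.22 and 5.32 CPM at 72 h. In mut libraries it had 3.75, 4.38, 3.89 and 4.73 CPM in solvent, 4.07, 3.67, 5.31 and 3.59 CPM after 6 h, 4.34, 3.95, 3.95 and 4.19 CPM at 24 h and 3.802, 4.68, 3.99 and 5.36 CPM at 72 h. Clone 27 was higher than clone 2 in treated WT cells, and every WT library at 24 and 72 h exceeded every WT solvent library, whereas the mut ranges overlapped that of mut solvent at each time. The WT change was 0.59 ± 0.18 at 24 h and 0.69 ± 0.18 at 72 h (adjusted p 0.00795 and 0.00217), or 0.76 and 0.88 relative to the median of all genes. With the replications summed the value at 24 h was 0.58 (adjusted p 0.0550). In mut cells it was -0.02 ± 0.19 and 0.08 ± 0.18 (adjusted p 0.953 and 0.791). The difference between these responses was -0.61 ± 0.26 at 24 h and -0.61 ± 0.26 at 72 h, not called without pairing (adjusted p 0.149 and 0.122) and called with the series as a block at -0.61 (adjusted p 0.0396) and -0.61 (adjusted p 0.0305).

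CDKN2D was lower in mut than in WT cells, with log2 differences of -0.52 ± 0.18 at 24 h and -0.52 ± 0.17 at 72 h (adjusted p 0.0237 and 0.0161), and in solvent the difference was 0.09 ± 0.19 (adjusted p 0.820). The call at 24 h was lost without WT series 27-2 at -0.43 (adjusted p 0.0675), without mut series 1-2 at -0.50 (adjusted p 0.0695) and with summed replications at -0.52 (adjusted p 0.107); without WT 24 h 27-1 or 27-2 or mut 24 h 65-1 or 1-2 the value was -0.50 to -0.43 with adjusted p-values of 0.0536 to 0.0828. At 72 h, without WT 72 h 27-1 or mut 72 h 1-1 the value was -0.44 to -0.37 with adjusted p-values of 0.0625 to 0.0935, and with summed replications it was -0.51 (adjusted p 0.0884). The CDKN2C share of the summed CDKN2C and CDKN2D abundance per kb went from 65.4% ± 2.67 in WT solvent libraries to 42.1% ± 5.69 at 24 h, while in mut libraries it was 65.1% ± 4.28 and 57.8% ± 5.39. CDKN2A and CDKN2B, the other INK4 genes, were not found by symbol in the table of counted genes, so they could not be analysed here.

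MYC, whose repression is a hallmark of the cytostatic response of epithelial cells to TGFβ, fell in both genotypes and fell less in mut clones. MYC (ENSG00000136997, chromosome 8, 127735434 to 127742951, plus strand) had 609.5, 544, 633 and 710.1 CPM in WT solvent libraries and 600.1, 544, 654 and 677 CPM in mut solvent libraries. With TGFβ1 the WT libraries had 421, 392, 364 and 361 CPM after 6 h, 282, 271, 308 and 299 CPM at 24 h and 297, 309.6, 339.6 and 291 CPM at 72 h. Treated mut libraries had 453, 582, 525 and 505 CPM after 6 h, 433, 441, 502 and 473 CPM at 24 h and 477, 447, 510.1 and 513 CPM at 72 h. The genotypes overlapped in solvent, and at each time of TGFβ1 the lowest mut library stood above the highest WT library. The lowest solvent libraries were 27-2 in WT and 1-2 in mut cells. MYC overlaps CASC11, on the opposite strand, in exons, and reads there could belong to either gene.

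The WT change of MYC was -0.69 ± 0.08 after 6 h, -1.10 ± 0.08 at 24 h and -1.01 ± 0.08 at 72 h (adjusted p from limma-voom 9.66e-07, 2.89e-11 and 1.26e-10), or -0.93 and -0.82 at the later times relative to the median of all genes. Most of the fall was in place at 6 h, and the step from 6 to 24 h was -0.41 ± 0.08 (adjusted p 0.000397). From 24 to 72 h the value was 0.09 ± 0.08 (adjusted p 0.566). In mut cells the change was -0.26 ± 0.08 at 6 h (adjusted p 0.0507, and -0.26, adjusted p 0.0178 with the series as a block), -0.42 ± 0.08 at 24 h and -0.34 ± 0.08 at 72 h (adjusted p 0.000522 and 0.00283). The mut value at 6 h was -0.26 (adjusted p 0.0417) without series 27-2 and -0.38 (adjusted p 0.00763) without series 1-2, whose 6 h library was above its solvent library, and without mut solvent 1-2 or mut 6 h 1-2 the value was -0.32 with adjusted p-values of 0.0136 to 0.0360.

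Within series, MYC moved by -1.25 to -1.01 on the log2 scale in the 4 WT series at 24 h and by -0.52 to -0.30 in the 4 mut series. At 72 h the ranges were -1.29 to -0.81 in WT and -0.40 to -0.28 in mut series. The ranges of the genotypes were separate at both times. The interaction reached 0.68 ± 0.12 at 24 h and 0.67 ± 0.12 at 72 h (adjusted p 0.000703 and 0.000517), with TMM factors 0.59 (adjusted p 0.00143) and 0.58 (adjusted p 0.00104). At 6 h it was 0.43 ± 0.12 (adjusted p 0.337). The interaction calls at 24 and 72 h held under each alternative and in each fit that left out 1 library.

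The genotype difference of MYC went from -0.01 ± 0.08 in solvent (adjusted p 0.954) to 0.42 ± 0.08 after 6 h, 0.67 ± 0.08 at 24 h and 0.66 ± 0.08 at 72 h (adjusted p 0.000399, 3.54e-07 and 4.24e-07). These 3 calls of treated cells held in every alternative tried.

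**Figure D3:**
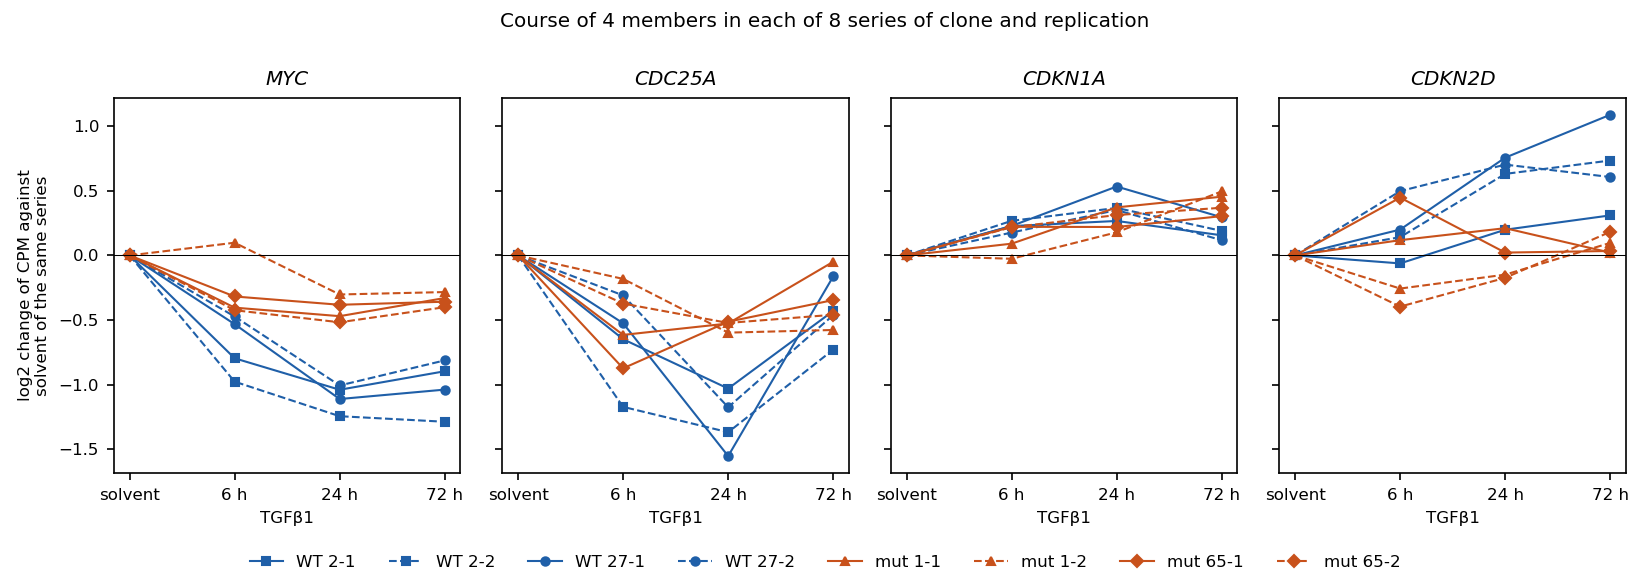
Log2 change of CPM against the solvent library of the same series (y axis) over treatment states (x axis) for MYC, CDC25A, CDKN1A and CDKN2D, chosen for display after their values were seen, with 4 WT series in blue and 4 mut series in orange (dashed lines: replication 2). For MYC the WT lines run from -1.01 to -1.25 at 24 h, below all mut lines, while the CDKN1A lines of the genotypes overlap at 24 h.

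CCND1, which encodes cyclin D1, rose at 72 h in both genotypes, fell at 6 h in WT cells, and was lower in mut than in WT clones at each state. CCND1 (ENSG00000110092, chromosome 11, 69641156 to 69654474, plus strand) had 319, 341, 316 and 305 CPM in WT solvent libraries, 234, 302, 255 and 255 CPM after 6 h, 273, 332, 293 and 314 CPM at 24 h and 377, 417, 352 and 375 CPM at 72 h. The WT libraries at 6 h all lay below those of solvent and those at 72 h all above. In mut libraries it had 243, 266, 247 and 225 CPM in solvent, 207, 224, 185 and 197 CPM after 6 h, 271, 229, 245 and 249.95 CPM at 24 h and 359, 308, 306 and 239.6 CPM at 72 h. At 72 h mut library 65-2 lay within the range of mut solvent and mut library 1-1 within that of WT. CCND1 overlaps LTO1 of the opposite strand in exons.

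The change of CCND1 in WT cells was -0.30 ± 0.09 after 6 h, -0.08 ± 0.09 at 24 h and 0.25 ± 0.09 at 72 h (adjusted p 0.0244, 0.471 and 0.0257). The value at 24 h took the opposite sign with TMM factors, 0.09 (adjusted p 0.443), and the fall at 6 h was no longer called there, at -0.22 (adjusted p 0.133). At 6 h, without WT solvent 27-2 or WT 6 h 27-1, 2-1 or 2-2 the value was -0.29 to -0.25 with adjusted p-values of 0.0549 to 0.0877, and with summed replications it was -0.29 (adjusted p 0.0722). At 72 h, without WT solvent 2-1 or 2-2 or WT 72 h 27-2 the value was 0.20 to 0.24 with adjusted p-values of 0.0514 to 0.0922, and without the whole series 27-2 it was 0.23 (adjusted p 0.0509). The rise from 24 to 72 h was 0.33 ± 0.09 (adjusted p 0.0246; summed replications 0.33, adjusted p 0.0724); without WT 24 h 27-1 or 2-1 or WT 72 h 27-1 or 27-2 the value was 0.28 to 0.33 with adjusted p-values of 0.0573 to 0.112. From 6 to 24 h it was 0.21 ± 0.09 (adjusted p 0.0832; series block 0.21, adjusted p 0.0179).

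In mut cells CCND1 changed by -0.27 ± 0.09 at 6 h, where all 4 libraries lay below solvent (adjusted p 0.0670; series block -0.27, adjusted p 0.0102), and by 0.29 ± 0.09 at 72 h (adjusted p 0.0189). At 72 h, without mut solvent 65-2 or mut 72 h 1-1 the value was 0.21 to 0.25 with adjusted p-values of 0.0728 to 0.104. At 6 h it was -0.27 (adjusted p 0.0449) without series 27-2, and without mut 6 h 1-2 the value was -0.32 with an adjusted p-value of 0.0316. The series block also called the steps from 6 to 24 h at 0.29 (adjusted p 0.00890) and from 24 to 72 h at 0.28 (adjusted p 0.0135). The former was 0.29 (adjusted p 0.0427) without series 27-2 and 0.38 (adjusted p 0.0470) without series 1-2, and without mut 24 h 1-2 the value was 0.33 with an adjusted p-value of 0.0454. For the latter, without mut 72 h 65-2 the value was 0.38 with an adjusted p-value of 0.0147. Against WT, mut cells were lower, with log2 differences of -0.39 ± 0.09 in solvent, -0.36 ± 0.09 after 6 h, -0.28 ± 0.09 at 24 h and -0.34 ± 0.09 at 72 h (adjusted p 0.00464, 0.00498, 0.0163 and 0.00427). The call at 24 h rested on few libraries, since without WT 24 h 27-2 or mut 24 h 1-2 the value was -0.24 with adjusted p-values of 0.0615 to 0.0635, and without the whole series 1-2 the value was -0.24 (adjusted p 0.0636). The interaction was between 0.02 and 0.10 at the 3 times (adjusted p from 0.699 to 0.999).

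CCND3, which encodes cyclin D3, was opposite to CCND1 between genotypes. CCND3 (ENSG00000112576, chromosome 6, 41934934 to 42050357, minus strand) ranged over 168 to 183 CPM in WT solvent libraries, 141 to 175 CPM after 6 h, 144 to 168 CPM at 24 h and 139 to 159.7 CPM at 72 h. In mut libraries the ranges were 195 to 219 CPM, 187 to 210.5 CPM, 177 to 199 CPM and 160.04 to 186 CPM. At each of the 4 states the whole mut range lay above the whole WT range. Mut cells were higher by 0.27 ± 0.07 in solvent, 0.32 ± 0.07 after 6 h, 0.27 ± 0.07 at 24 h and 0.19 ± 0.07 at 72 h (adjusted p 0.00659, 0.000856, 0.00179 and 0.0212). In solvent the value with summed replications was 0.27 (adjusted p 0.0740). At 72 h the call was absent with TMM factors at 0.11 (adjusted p 0.230), and without WT 72 h 2-1 or 2-2 or mut 72 h 65-2 the value was 0.15 to 0.17 with adjusted p-values of 0.0702 to 0.0904.

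TGFβ1 lowered CCND3 in WT cells by library-size scaling, to -0.19 ± 0.07 at 24 h and -0.24 ± 0.07 at 72 h (adjusted p 0.0154 and 0.00342), but these were -0.02 and -0.05 relative to the median of all genes and with TMM factors -0.02 (adjusted p 0.872) and -0.08 (adjusted p 0.399). At 24 h, without WT 24 h 2-1 or 2-2 the value was -0.17 to -0.16 with adjusted p-values of 0.050003 to 0.0586. In mut cells the change was -0.19 ± 0.07 at 24 h and -0.31 ± 0.07 at 72 h (adjusted p 0.0389 and 0.000789). With TMM factors the former was -0.10 (adjusted p 0.371) and the latter -0.24 (adjusted p 0.0164), and at 24 h without mut solvent 1-1, 65-1 or 65-2 or mut 24 h 1-1, 65-1 or 65-2 the value was -0.20 to -0.16 with adjusted p-values of 0.0550 to 0.120. The CCND1 share of the summed CCND1 and CCND3 abundance per kb was 68.8% ± 1.07 in WT and 58.3% ± 2.803 in mut solvent libraries. By 72 h it was 75.5% ± 0.723 in WT and 67.97% ± 5.12 in mut libraries.

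CDK6, the catalytic partner of the D cyclins, rose late in both genotypes. CDK6 (ENSG00000105810, chromosome 7, 92604921 to 92836573, minus strand) ranged over 97.8 to 113 CPM in WT solvent libraries, 102 to 115 CPM after 6 h, 121 to 142 CPM at 24 h and 149 to 154 CPM at 72 h. In mut libraries the ranges were 83.8 to 109 CPM, 74.2 to 97.7 CPM, 88.9 to 121 CPM and 89.96 to 131 CPM. The WT libraries at 24 and 72 h all lay above those of solvent, and the mut ranges at these times overlapped that of mut solvent, whose highest library was 1-2; library 1-2 was the lowest at 24 h and 65-2 at 72 h. The WT change was 0.28 ± 0.10 at 24 h and 0.49 ± 0.10 at 72 h (adjusted p 0.0235 and 0.000213), or 0.46 and 0.68 relative to the median of all genes; at 24 h, without WT solvent 2-1 or WT 24 h 2-1 or 2-2 the value was 0.23 to 0.27 with adjusted p-values of 0.0522 to 0.0870. In mut cells it was 0.23 ± 0.10 at 24 h (adjusted p 0.101; TMM factors 0.32, adjusted p 0.0316; 0.41, adjusted p 0.00710 without series 1-2) and 0.34 ± 0.10 at 72 h (adjusted p 0.0164), where without mut solvent 1-1 or 65-1 or mut 72 h 1-1 or 1-2 the value was 0.28 to 0.30 with adjusted p-values of 0.0582 to 0.0717. For mut cells at 24 h, without mut solvent 1-2 or mut 24 h 1-2 the value was 0.31 to 0.33 with adjusted p-values of 0.0234 to 0.0388. CDK6 overlaps CDK6-AS1 of the opposite strand in exons.

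Mut cells had less CDK6 than WT cells, with log2 differences of -0.32 ± 0.10 after 6 h, -0.28 ± 0.10 at 24 h and -0.38 ± 0.10 at 72 h (adjusted p 0.0250, 0.0341 and 0.00357), and the ranges did not overlap at these times. In solvent the difference was -0.23 ± 0.10 (adjusted p 0.148), and without series 1-2 it was -0.31 (adjusted p 0.0396). At 6 h, without WT 6 h 2-1 or 2-2 or mut 6 h 65-1 the value was -0.31 to -0.24 with adjusted p-values of 0.0584 to 0.123, and without the whole series 27-2 it was -0.32 (adjusted p 0.0570). At 24 h, without WT 24 h 2-1 or 2-2 or mut 24 h 65-1 or 1-2 the value was -0.28 to -0.18 with adjusted p-values of 0.0584 to 0.181, without series 27-2 it was -0.29 (adjusted p 0.0579) and without series 1-2 -0.18 (adjusted p 0.150). Summed replications gave -0.32 (adjusted p 0.0576) at 6 h and -0.27 (adjusted p 0.0694) at 24 h.

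CDC25A, the phosphatase that activates CDKs at the entry to S phase, fell deepest at 24 h in WT cells and returned in part by 72 h. CDC25A (ENSG00000164045, chromosome 3, 48157146 to 48188417, minus strand) had 45.8, 47.96, 44.95 and 49.2 CPM in WT solvent libraries, 31.8, 38.7, 28.7 and 21.8 CPM after 6 h, 15.6, 21.2, 21.99 and 19.03 CPM at 24 h and 40.9, 34.8, 33.4 and 29.6 CPM at 72 h. Every treated WT library lay below every WT solvent library, and every library at 72 h above every library at 24 h. In mut libraries it had 39.95, 40.03, 45.2 and 34.6 CPM in solvent, 26.1, 35.3, 24.7 and 26.7 CPM after 6 h, 27.7, 26.4, 31.7 and 24.1 CPM at 24 h and 38.6, 26.8, 35.6 and 25.2 CPM at 72 h. Of the mut times, the range at 24 h was separate from that of solvent. At 24 h the lowest mut library exceeded the highest WT library, whereas the genotypes overlapped in solvent and at 6 and 72 h.

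The WT change of CDC25A was -0.67 ± 0.14 after 6 h, -1.29 ± 0.16 at 24 h and -0.44 ± 0.14 at 72 h (adjusted p 0.00164, 7.41e-08 and 0.00989), or -1.12 and -0.25 at the later times relative to the median of all genes, and the value at 72 h was -0.28 (adjusted p 0.102) with TMM factors. From 6 to 24 h WT cells moved by -0.62 ± 0.16 and from 24 to 72 h by 0.85 ± 0.16 (adjusted p 0.00417 and 0.00207). The return was largest in series 27-1. In mut cells the change was -0.52 ± 0.15 at 6 h and -0.54 ± 0.15 at 24 h (adjusted p 0.0289 and 0.00860) and -0.36 ± 0.14 at 72 h (adjusted p 0.0691; series block -0.36, adjusted p 0.0309), where without mut 72 h 1-1 the value was -0.47 with an adjusted p-value of 0.0272. The mut call at 6 h was absent with TMM factors at -0.46 (adjusted p 0.0570) and with summed replications at -0.52 (adjusted p 0.0913), and without mut solvent 1-1, 65-1 or 1-2 or mut 6 h 1-1, 65-1 or 65-2 the value was -0.52 to -0.46 with adjusted p-values of 0.0650 to 0.142.

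The interaction of CDC25A was 0.75 ± 0.21 at 24 h (limma-voom adjusted p 0.0258; series block 0.75, adjusted p 0.00630), 0.15 at 6 h and 0.09 at 72 h (adjusted p 0.999 and 0.835). The call at 24 h was absent with TMM factors at 0.66 (adjusted p 0.0582), with edgeR quasi-likelihood at 0.64 (adjusted p 0.0609), with summed replications at 0.74 (adjusted p 0.0760) and without series 1-2 at 0.77 (adjusted p 0.0503), and without WT 24 h 27-1, mut solvent 65-2 or mut 24 h 65-1 the value was 0.64 to 0.68 with adjusted p-values of 0.0579 to 0.0731. The genotype difference at 24 h was 0.51 ± 0.16 (adjusted p 0.0149), and without WT 24 h 27-1 or mut 24 h 65-1 the value was 0.40 to 0.44 with adjusted p-values of 0.0548 to 0.0754.

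**Figure D4:**
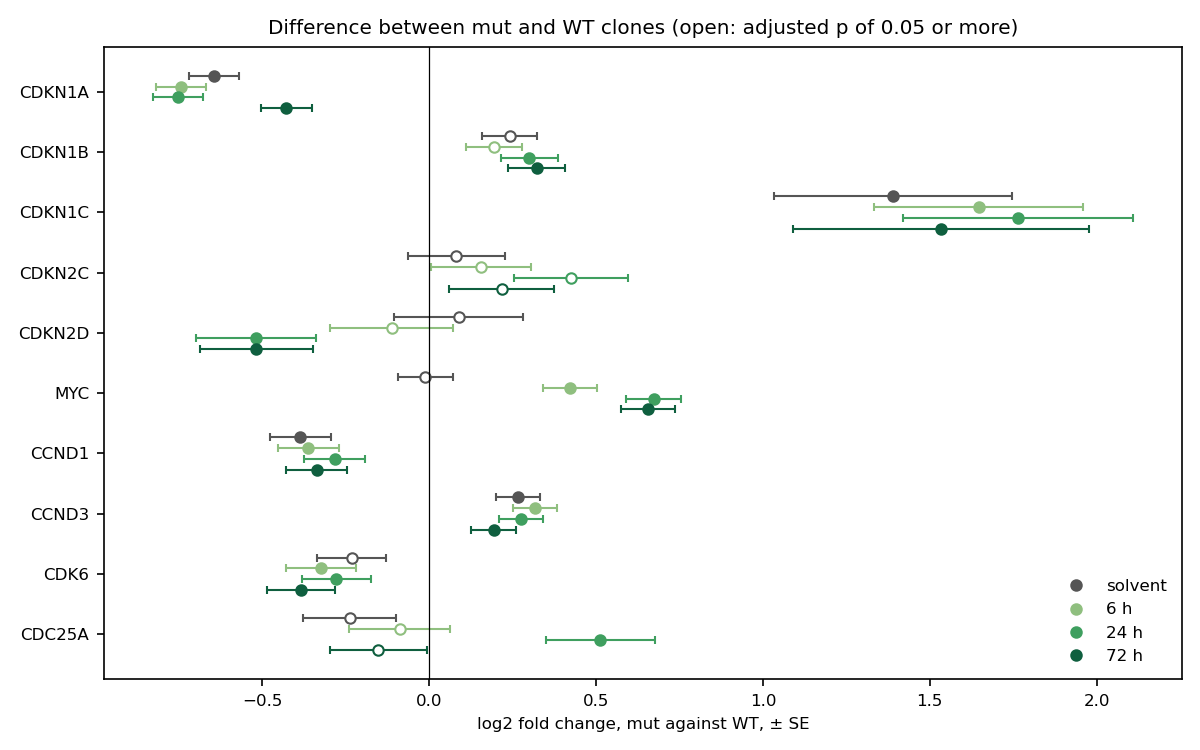
Log2 difference of mut against WT (x axis, ± SE from limma-voom) for each G1 regulator in solvent and at 6, 24 and 72 h of TGFβ1 (colours from grey to dark green); open symbols have an adjusted p of 0.05 or more. CDKN1C lies between 1.39 and 1.76 and CDKN1A between -0.75 and -0.43, while MYC moves from -0.01 in solvent to 0.67 at 24 h.

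Of 40 other genes of the G1 machinery, 38 were in the table and all 38 were tested. In WT cells 1 rose and 15 fell at 6 h, where 5.13% of all genes rose and 11.9% fell. At 24 h 1 rose and 28 fell (all genes 14.1% and 38.0%), and at 72 h 0 rose and 22 fell (13.9% and 38.4%). TMM factors gave 3 and 21 at 24 h, beside 3499 and 3450 of all genes. At 72 h they gave 4 and 13, beside 3189 and 3459. Their median change at 24 h was -0.60 in WT cells beside -0.18 over all genes, and -0.22 in mut cells beside -0.10. The gene that rose in WT cells at 24 h was ZBTB17, which encodes the MYC partner MIZ1, at 0.26 ± 0.08 (adjusted p 0.00949). The 3 that fell most there were E2F2 at -2.52 ± 0.32, the phosphatase gene CDC25B at -1.53 ± 0.13 and the cyclin E gene CCNE2 at -1.29 ± 0.20 (adjusted p 2.21e-07, 2.34e-10 and 3.11e-06). In mut cells 5, 15 and 7 of the 38 fell at 6, 24 and 72 h, where 4.94%, 17.1% and 16.3% of all genes fell. Of the 38, 0 rose, where 2.06%, 6.75% and 7.81% of all genes rose. TMM factors gave 7 lower calls at 24 h, and 1 higher call and 6 lower calls at 72 h. The series block gave 14, 19 and 12 lower calls, with 1 higher at 72 h.

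The interaction was called for 10 of these genes at 24 h and 8 at 72 h, all with a more positive change in mut than in WT cells, where 7.72% and 9.40% of all genes were called higher. With TMM factors 3 and 4 of the 38 were called higher and 1 lower at each time. Over all genes these factors gave 443 higher and 417 lower calls at 24 h, and 674 and 617 at 72 h. At 24 h they included the kinase gene CDK4 (0.69), the cyclin E genes CCNE1 (0.63) and CCNE2 (1.08), the RB relative RBL1 (0.56), E2F4 (0.30) and its dimer partner TFDP1 (0.35). Also called were the ubiquitin ligase subunit SKP2 (0.53) and its cofactor CKS1B (0.54), which together mark p27 for degradation, and the cyclin H gene CCNH (0.39). With TMM factors CDK4 and CCNE2 were among those still called higher and MNT, a MYC antagonist named here after its values were seen, was called lower. At 72 h the called genes included CDK4 (0.50), E2F4 (0.30), TFDP1 (0.35), SKP2 (0.51), FBXW7 (0.44), MXI1 (0.61) and the ubiquitin ligase gene MDM2 (0.73), of which CDK4, MXI1 and MDM2 were called with TMM factors, again beside MNT called lower. The series block called 14 higher at 24 h and 13 at 72 h, beside 2092 and 2547 of all genes.

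Genes of the S, G2 and M phases, like CDC25A, were lower at 24 h than in solvent, and more so in WT than in mut cells. The summed abundance of 7 such markers (MKI67, TOP2A, CCNA2, CCNB1, CDK1, PCNA and MCM2) ranged over 1188 to 1494 CPM in WT solvent libraries, 967 to 1298 after 6 h, 472 to 732 at 24 h and 726 to 1052 at 72 h. In mut libraries it ranged over 1173 to 1270.3 CPM in solvent, 980.4 to 1145 after 6 h, 834 to 993 at 24 h and 805 to 1225 at 72 h. The mut range exceeded the WT range at 24 h and overlapped it at the other states. At 6 h the median change of the 7 markers was -0.27 in WT and -0.21 in mut cells, beside -0.67 for CDC25A in WT cells. Of the 7, 1 was called lower in WT and 0 in mut cells at 6 h, where 11.9% and 4.94% of all genes fell. All 7 fell in WT cells at 24 h (median -1.09), where 38.0% of all genes fell. In mut cells 5 of 7 fell at 24 h (median -0.44), where 17.1% of all genes fell. With TMM factors 2 fell there, beside 1195 of all genes. Of the 7 interactions, 5 were called higher at 24 h, where 7.72% of all genes were. With TMM factors 2 were called higher, beside 443 of all genes. At 72 h 0 were called (9.40% of all genes higher), and the series block called 6. The part of the cycle position in the changes of CDC25A and the other members was not tested.

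The genes whose log2 abundance over the 8 group means was most like each member, among genes with a mean of at least 10 CPM, are given as a description; the means share libraries, 8 points are few and 9644 or 9645 genes were compared. For CDKN1A they were RAC2 (r = 0.993) and MTMR11 (r = 0.993), and for CDKN1B TXNRD3 (r = 0.992) and SNHG15 (r = 0.989). CDKN1C was followed most closely by OPLAH (r = 0.988) and ADGRG2 (r = 0.984). CDKN2C had as neighbours FAM83D (r = 0.996) and PKP4 (r = 0.994), where FAM83D encodes a protein of the mitotic spindle, and CDKN2D BTN2A1 (r = 0.988) and BRPF3 (r = 0.975). Nearest to MYC were ZNF584 (r = 0.997) and PRR5 (r = 0.994). CCND1 was nearest to SNX25 (r = 0.989) and ERO1A (r = 0.985) and CCND3 to CXCL16 (r = 0.993) and FOXO3 (r = 0.989). The neighbours of CDK6 were ZEB1 (r = 0.995) and RAB2A (r = 0.992), where ZEB1 encodes a repressor of epithelial genes, and those of CDC25A EXOSC9 (r = 0.989) and CWF19L1 (r = 0.988). EXOSC9 overlaps CCNA2, a marker used above and on the opposite strand, in exons, and reads there could belong to either gene.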

How the data were processed

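Read counts per gene were deposited for 32 libraries. Per the labels and the study's methods, the authors prepared libraries with a TruSeq kit that keeps no strand information, trimmed paired reads with Trimmomatic, and aligned and counted them with STAR on Ensembl GRCh38; whether strand was used in counting is not given in the sources used here. The deposited counts were whole numbers without normalization, and 0 columns were left unused. Groups, clones and replication numbers were taken from the labels. Members and lists were chosen with earlier results of these data known.

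GENCODE release 44 (GRCh38) named 17763 of the 17788 genes and gave coordinates and exons. The low-count filter was filterByExpr (edgeR 4.0.16) with its minimum count of 10 and minimum total of 15. Counts were scaled by library size only, and limma-voom (limma 3.58.1 in R 4.3.3) was run on all 32 libraries with ~0 + condition, the study's model; the filter and the interaction were chosen here. Each of 17 comparisons was adjusted over all 14865 genes by Benjamini-Hochberg. All 10 members were named, with JUNB; of the other G1 genes, CDKN2A and CDKN2B, up to 3 with the highest and 3 with the lowest change among those called in WT cells at 24 h, those with an interaction call at 24 or 72 h (1 is not reported here), and the 2 genes most correlated with each member. The scripts were tested on simulated data.

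Libraries of a group differed by more than sampling noise in chi-square tests, and each was counted as a sample. These tests cannot show that the replications of a clone are independent. A floor of 3 counts corresponds to 0.0549 to 0.0756 CPM; floors cover counting error only. Same-numbered libraries of a clone shared deviations from the means of their groups (a mean r of 0.303 over 48 pairs, the lowest 0.0283; 0.0184 for the same clone with another number), and the labels tie them to the same clone, so the series pairs the libraries. Alternatives were TMM factors, edgeR quasi-likelihood, DESeq2 1.42.0, no low-count filter, the series or the replication number as a replicate block, summed replications of a clone, and fits without the series 27-2, without the series 1-2 or without each library in turn. The quasi-likelihood test also used TMM factors, and DESeq2 its own scaling of libraries. Both therefore changed the scaling as well as the test. Motifs were matched by letters on both strands of RefSeq promoter windows.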

Additional observations from a re-analysis of the deposited data

Results flagged for a closer look

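CDKN2C in WT library 27-2 at 72 h stood apart from its group, at 14.4 CPM where the other 3 libraries had 9.48 to 10.02 CPM. It came from 80 such checks of 10 members in 8 groups, of which chance marks about 1 in 20. Library 27-2 was also the highest for CDKN2C in solvent, at 6 h and at 24 h.

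The response to TGFβ1 differed between genotypes, by the interaction term of limma-voom, for MYC at 24 h (log2 difference 0.68 ± 0.12, adjusted p 0.000703), for MYC at 72 h (0.67 ± 0.12, adjusted p 0.000517) and for CDC25A at 24 h (0.75 ± 0.21, adjusted p 0.0258). All 4 WT series fell further than all 4 mut series for MYC at both times and for CDC25A at 24 h, in the same libraries. Both MYC calls held under each alternative. The CDC25A call was absent with TMM factors, edgeR quasi-likelihood and summed replications, without series 1-2 and without some single libraries.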

How the results depend on the processing

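With TMM factors 5 members were called in WT cells at 72 h, 0 in mut cells at 6 h, 6 in WT cells from 6 to 24 h and 1 for the interaction at 24 h. The edgeR quasi-likelihood test called 0 in mut cells at 6 h, 5 in WT cells from 6 to 24 h and 1 for the interaction at 24 h, and DESeq2 7 in WT cells from 6 to 24 h, 2 in mut cells from 6 to 24 h and 1 from 24 to 72 h. The series as a replicate block gave 4 in mut cells at 6 h, 8 in mut cells at 72 h, 7 in WT cells from 6 to 24 h, 5 in WT cells and 2 in mut cells from 24 to 72 h, 1 in mut cells from 6 to 24 h and 3 for the interaction at 72 h; it changed no call other than those given with the results. The replication number as a block gave 2 in mut cells at 6 h and 1 from 24 to 72 h. Summed replications gave 2 in WT cells at 6 h, 0 in mut cells at 6 h, 1 in WT cells from 24 to 72 h and 1 for the interaction at 24 h. Without series 27-2 there were 3 in mut cells at 6 h, and 1 from 6 to 24 h and 1 from 24 to 72 h, and without series 1-2 2 in mut cells at 6 h, 2 from 6 to 24 h and 1 for the interaction at 24 h. For all of these the cause was not tested.

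Leaving out 1 library gave 2 to 4 members in WT cells at 6 h, 5 to 8 at 24 h and 1 to 2 from 24 to 72 h, 0 to 3 in mut cells at 6 h, 2 to 6 at 24 h, 0 to 2 from 6 to 24 h and 0 to 1 from 24 to 72 h, and 1 to 2 for the interaction at 24 h. Of 67 member calls over the 17 comparisons, 41 were kept in every such fit and 26 were lost in at least 1. Removing the low-count filter changed 0 of 170 member results, and no called change reversed its sign under any alternative. The part of depth in the calls was not tested, and the 2 clones per genotype did not allow clone and genotype to be separated further.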

Other observations

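CDKN1C was the member in which the 2 replications of a clone differed most regularly. The other members had a higher value in replication 1 in 4 to 10 of 16 pairs of clone and state, with median ratios of 0.940 to 1.09, against 15 of 16 and 1.48 for CDKN1C. This was noticed in the data and not tested further.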
